A study of Mus musculus with 12 samples.

Results

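The 10 genes described here mark or regulate the luminal progenitor and alveolar cells of the mammary gland: the ETS-family transcription factors Elf5 and Ehf, the transcription factor Sox10, the prolactin-pathway transcription factors Stat5a and Stat5b, the receptor tyrosine kinase Kit, the retinaldehyde dehydrogenase Aldh1a3, and Btn1a1, Xdh and Lcn2, which encode proteins of milk fat secretion or of the secreted fluid. They were taken by name from a list of 10, of 21887 protein-coding genes on chromosomes 1 to 19, X and Y. All 10 carried a called H3K4me3 peak near an annotated start or gene end in at least 1 library, as did 12565 genes (57.4%) of the whole set. None had an H3K27me3 peak over the gene or its 5 kb flanks in any library.

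CUT&Tag, in which an antibody guides a transposase to the marked chromatin, was run for H3K4me3 and for H3K27me3 in mouse breast cancer organoids called PyMT derived organoids, with the genotype given as WT. The groups, named Ctrl, SR2 and THC for the treatment they had received, were collected 3 days after treatment, with 2 libraries per mark and group, each in 1 of 2 batches. The labels give no dose, no age or number of animals, no promoter for the PyMT oncogene and no number of organoid lines, and they do not spell out SR2. Nothing in them says that replicates came from separate cultures, so p-values measure only the spread between these libraries, which may be technical.

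H3K4me3 is laid down around the start sites of active genes, and broader domains often lie at genes that define a cell type. H3K27me3 is placed by Polycomb repressive complex 2 over genes held silent. In the mammary gland, luminal progenitors carry Kit and Aldh1a3, and pregnancy hormones drive them towards milk-producing alveolar cells: prolactin binds its receptor Prlr, the kinase Jak2 then phosphorylates Stat5a and Stat5b, and these, together with Elf5, turn on the milk genes.

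The promoter sequences of Elf5, Stat5b and Lcn2 are shown because each bears on where the H3K4me3 peak lay. They run 5′ to 3′ on the strand of the gene, from 250 bases before to 50 bases after an annotated start, are taken from RefSeq (GRCm38.p6, the assembly of mm10), and have each CG dinucleotide in capitals. The Elf5 and Stat5b pairs set a start with an H3K4me3 peak beside a start with none, and Lcn2 is a start that was marked in 6 of 6 libraries with few CG dinucleotides. Promoter entries for Aldh1a3, Ehf, Sox10, Btn1a1 and Xdh were not used here.
Elf5 upstream start, chr2:103411848-103412147, plus strand: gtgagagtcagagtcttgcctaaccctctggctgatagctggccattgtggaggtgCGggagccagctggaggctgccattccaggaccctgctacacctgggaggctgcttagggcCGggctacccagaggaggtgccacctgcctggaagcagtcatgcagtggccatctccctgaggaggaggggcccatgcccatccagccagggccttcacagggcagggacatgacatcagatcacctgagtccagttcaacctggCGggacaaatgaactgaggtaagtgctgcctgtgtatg
Elf5 downstream start, chr2:103423818-103424117, plus strand: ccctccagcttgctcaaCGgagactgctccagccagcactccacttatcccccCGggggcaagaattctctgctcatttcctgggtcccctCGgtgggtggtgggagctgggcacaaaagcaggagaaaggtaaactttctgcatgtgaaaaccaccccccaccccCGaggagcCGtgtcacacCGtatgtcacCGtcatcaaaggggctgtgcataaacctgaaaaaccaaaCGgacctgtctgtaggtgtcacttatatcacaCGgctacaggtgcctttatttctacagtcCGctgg
Stat5b upstream start, chr11:100850532-100850831, minus strand: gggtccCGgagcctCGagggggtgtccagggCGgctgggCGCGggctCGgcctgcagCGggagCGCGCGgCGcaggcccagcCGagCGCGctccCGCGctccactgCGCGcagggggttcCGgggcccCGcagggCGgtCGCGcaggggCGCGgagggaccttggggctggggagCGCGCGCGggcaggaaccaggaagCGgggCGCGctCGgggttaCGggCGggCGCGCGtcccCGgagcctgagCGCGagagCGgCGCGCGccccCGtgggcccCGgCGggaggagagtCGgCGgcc
Stat5b downstream start, chr11:100822521-100822820, minus strand: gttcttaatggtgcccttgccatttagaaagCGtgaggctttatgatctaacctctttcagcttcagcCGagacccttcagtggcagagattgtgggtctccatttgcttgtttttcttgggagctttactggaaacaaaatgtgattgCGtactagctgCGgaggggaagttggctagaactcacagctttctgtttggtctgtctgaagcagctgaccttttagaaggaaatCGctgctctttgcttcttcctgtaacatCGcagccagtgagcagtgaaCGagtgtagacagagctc
Lcn2 start, chr2:32387690-32387989, minus strand: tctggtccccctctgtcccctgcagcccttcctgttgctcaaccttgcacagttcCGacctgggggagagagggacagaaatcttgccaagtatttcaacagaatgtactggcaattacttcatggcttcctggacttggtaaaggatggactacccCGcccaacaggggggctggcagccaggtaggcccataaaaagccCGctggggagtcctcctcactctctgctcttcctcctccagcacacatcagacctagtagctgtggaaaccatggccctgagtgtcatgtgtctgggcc

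In these windows the CpG observed-to-expected ratio was 0.11 at the upstream and 0.442 at the downstream Elf5 start, 1.01 at the marked and 0.421 at the unmarked Stat5b start, and 0.127 at Lcn2. Over the 21263 promoters of protein-coding genes in the same table, 6.92% of the 4695 with a ratio under 0.2 had an H3K4me3 region within 1 kb, against 39.2% of the 6431 with a ratio from 0.2 to under 0.6 and 90.9% of the 10137 with a ratio of 0.6 or more. Lcn2 was thus among the few promoters of the CpG-poorest class with a region. Kit, with 20 CG dinucleotides and a ratio of 0.621, and the downstream start of Stat5a, with a ratio of 0.8, fell in the class that was mostly marked. The STAT core TTCNNNGAA and the TATA sequence TATAAA, searched on both strands, had 0 matches in the 9 windows of Elf5, Kit, Stat5a, Stat5b and Lcn2, while 8.3% and 13.6% of all 32851 promoters hold them. The ETS core GGAA, also searched on both strands, was present from 1 to 5 times in each window, and 84.6% of all promoters hold it 2 or more times. These matches describe the letters of a window only.

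The H3K4me3 lists held from 11924 to 18383 peaks covering 9.02 to 18.6 Mb. The first THC library stood apart, with the fewest peaks, the least covered length and a median summit pileup of 21, against 36 to 62 in the other libraries; the pileup is the stack of reads or fragments at a peak's highest point, recovered from the deposited fold and p-value of each peak. The H3K27me3 lists held 2712, 840 and 984 peaks in the first and 387, 157 and 70 in the second Ctrl, SR2 and THC libraries, so they were short and unequal within each group. As a check of the labelled tissue, the epithelial genes Epcam, Cdh1 and Krt8 had an H3K4me3 peak in all 6 libraries, and 8 of 8 epithelial genes were marked in at least 5, with Krt18 and Krt19 lacking a peak in the first THC library only and Cldn3 the widest in Ctrl, at 2174 and 1991 bp. Peaks were also present at 1 of 8 fibroblast, 1 of 6 endothelial and 2 of 8 blood and myeloid genes in at least 1 library.

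In what follows a gene's H3K4me3 value is the length in base pairs (bp) covered by called peaks in its region, which measures how wide the mark was called and not how high it was. Peaks of the 6 libraries that overlapped by at least 1 bp were merged into a region. A gene was given the widest region within 1 kb of any annotated start. A gene with no start in the table was given the widest region within 1 kb of either gene end. Of the luminal progenitor and alveolar genes described here these were 5 (Aldh1a3, Ehf, Sox10, Btn1a1 and Xdh). Other genes named in the text were also placed this way, among them Cdh1, Krt19, Nfib, Cidea, Sox9, Ly6a, Itgb4, Lpl, Col1a1, Spi1 and Pmel. The peaks of a gene placed by a gene end may lie at either end or belong to another gene. Log2 changes are differences of log2(covered bp + 200) between group means after each library was centred on the median of the regions marked in all 6 libraries, a scale that understates the change of low values. They were tested with limma over 15772 regions, and an adjusted p under 0.05 was the threshold. No region reached it by limma in any comparison (0% of regions), so no gene is said here to have changed. At an unadjusted p under 0.05, 8.91% of regions were narrower and 0.653% wider in SR2 than in Ctrl, 18.4% narrower and 4.41% wider in THC than in Ctrl, and 6.84% narrower and 1.84% wider in THC than in SR2. Centring took out a shift common to most regions: without it the median log2 change of all regions was -0.17 when SR2 was set against Ctrl, -0.52 when THC was, and -0.27 between THC and SR2. Fewer cells carrying a mark, less mark per cell and differences in library depth, which is not in the lists, cannot be told apart in these bulk libraries.

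**Figure D1:**
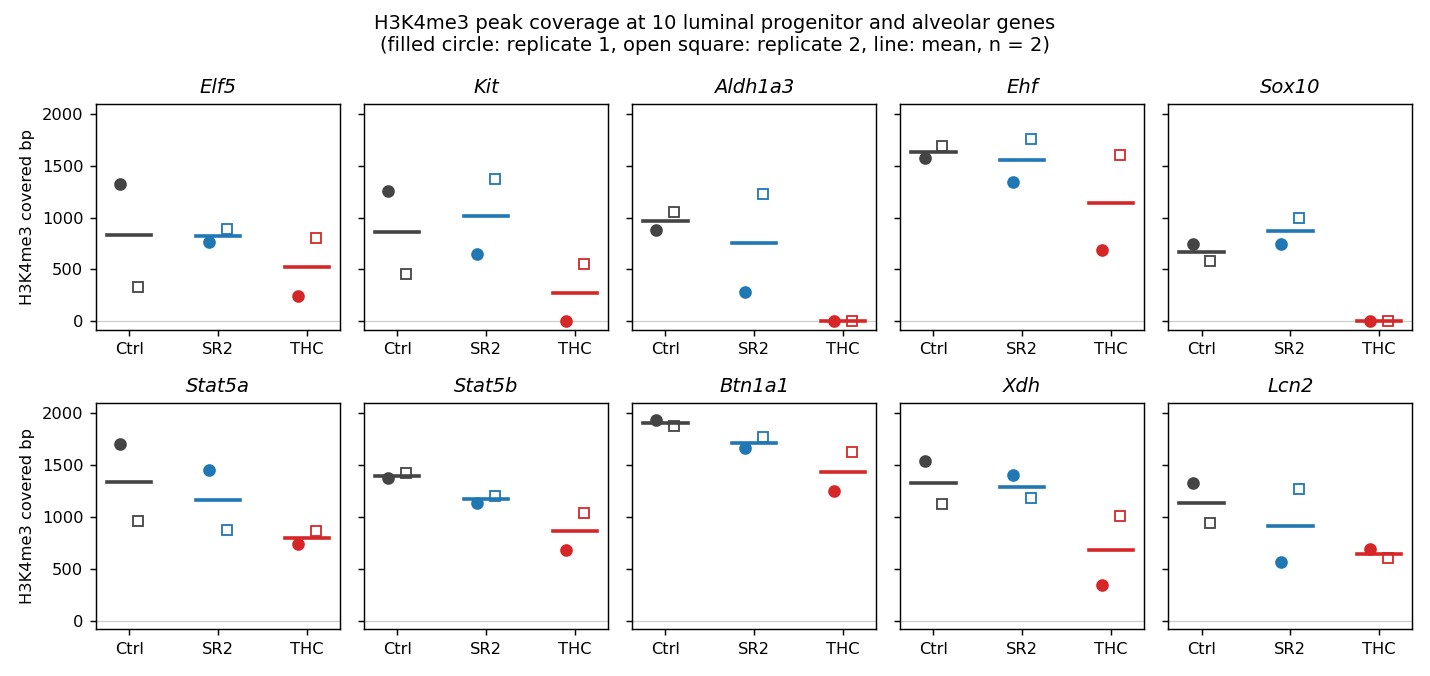
H3K4me3 covered length (bp, vertical axis) of each of the 10 genes in the 6 libraries, grouped by treatment, with a point per library. Sox10 and Aldh1a3 sit at 0 in both THC libraries, Kit at 0 in the first THC library, and Btn1a1 stays between 1252 and 1933 bp.

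Elf5 and Ehf are neighbours on chromosome 2, 108822 bp apart, and both encode ETS factors of epithelial cells. Elf5 (chr2:103412098-103450989), which directs alveolar differentiation, had covered lengths of 1323 and 333 bp in the Ctrl libraries, 763 and 891 bp in the SR2 libraries and 243 and 805 bp in the THC libraries, in replicate order. Its widest and its second narrowest peak were both in Ctrl, and all groups overlapped. The region, chr2:103423824-103425244, lay at the downstream start, while the upstream start 11970 bp away had no peak in any of the 6 libraries. The peaks of the 2 THC libraries did not overlap each other: relative to the downstream start one ran from -244 to -2 bp and the other from 365 to 1169 bp. The log2 change was 0.32 (SE 0.52, limma adjusted p = 1) for SR2 against Ctrl and -0.06 (SE 0.52, adjusted p = 0.955) for THC against Ctrl. Without the first THC library the THC value was 0.40, of the opposite sign.

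Ehf (chr2:103263431-103303275) had covered lengths of 1576 and 1689 bp in the Ctrl libraries, 1342 and 1763 bp with SR2, and 683 and 1604 bp with THC. The first THC library was the lowest of the 6, and the groups overlapped. A second region inside the gene, chr2:103300609-103301375, was marked in all 6 libraries at 268 to 667 bp, and another was marked in the first Ctrl library only, at 433 bp. On the log2 scale the difference was 0.06 (SE 0.24, limma adjusted p = 1) for SR2 and -0.16 (SE 0.24, adjusted p = 0.705) for THC against Ctrl.

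Sox10 (chr15:79154913-79164490), a transcription factor of neural crest cells that also acts in mammary progenitors, had covered lengths of 750 and 584 bp in Ctrl and 746 and 995 bp in SR2, and no peak in either THC library. Both THC libraries were thus below all 4 others, and Ctrl and SR2 overlapped. A second region within the gene, chr15:79162804-79163588, was marked at 535 and 0 bp in Ctrl, 331 and 304 bp with SR2, and 0 and 265 bp with THC, so the gene was not without H3K4me3 in the second THC library. For the first region, chr15:79163873-79164918, the log2 change was 0.44 (SE 0.34, limma adjusted p = 0.913) for SR2 against Ctrl, -1.73 (SE 0.34, adjusted p = 0.128) for THC against Ctrl and -2.17 (SE 0.34, adjusted p = 0.318) for THC against SR2. For THC against Ctrl 16 alternative settings were tried. Those that kept both Ctrl and both THC libraries gave limma adjusted p from 0.0183 to 0.734. It was under the threshold with a pseudocount of 50 bp, with no centring and with only the 4 libraries compared. With the 11924 strongest peaks of each library, Sox10 had no peak left in any Ctrl or THC library. The log2 value of 0.37 at that setting reflects the centring alone and is not a change of Sox10. Without the first THC library the log2 value was -1.86 (limma adjusted p = 0.161). With only the peaks past a −log10 q of 5, Sox10 no longer met the count of genes with peaks in both Ctrl libraries and neither THC library. The THC libraries held the fewest peaks of the 6, 11924 and 13229, and the part of this in the missing Sox10 peaks was not tested. Melanocytes also use Sox10, and of their genes Mitf, a transcription factor, was marked at 446 to 1030 bp in all 6 libraries. Pmel, a pigment granule protein, was marked at 942 to 1325 bp in all 6. Pmel was placed by a gene end, so its peak may lie at either end of the gene or belong to another gene. Both were lowest in the first THC library, while the pigment enzyme genes Dct and Tyr had no peak. The part of melanocytes in the Sox10 values was not tested.

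Kit (chr5:75574987-75656722), the stem cell factor receptor that marks luminal progenitors, had covered lengths of 1254 and 459 bp in the Ctrl libraries, 652 and 1370 bp with SR2, and 0 and 550 bp with THC. The first THC library alone lacked a peak, and Ctrl overlapped with both other groups. The summit pileup was low in each marked library, from 10 to 23. The log2 change was 0.38 (SE 0.65, limma adjusted p = 1) for SR2 against Ctrl and -0.96 (SE 0.65, adjusted p = 0.403) for THC against Ctrl, and without the first THC library the THC value was -0.14. Mast cells also use Kit, and 7 of 8 mast-cell genes had no peak in any library, with Gata2 marked at 412 bp in the first Ctrl library only. The part of mast cells in the Kit values was not tested.

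Aldh1a3 (chr7:66390892-66427477), which makes retinoic acid, had covered lengths of 877 and 1057 bp in Ctrl and 283 and 1232 bp in SR2, and no peak in either THC library. Both THC libraries were below all 4 others, whereas Ctrl and SR2 overlapped. The region, chr7:66426846-66428077, also lies near the noncoding gene Gm33515, and the peaks cannot be assigned to one of them. The log2 change was -0.35 (SE 0.54, limma adjusted p = 0.998) for SR2 against Ctrl, -2.16 (SE 0.54, adjusted p = 0.128) for THC against Ctrl and -1.82 (SE 0.54, adjusted p = 0.373) for THC against SR2. Over 16 alternative settings the THC against Ctrl value ran from -3.91 to -0.74 and its adjusted p from 0.0471 to 0.752.

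Stat5a and Stat5b, which carry the prolactin signal, lie 346 bp apart on chromosome 11, and each was given a different region. The region given to Stat5a, chr11:100859193-100860989, also lies within 1 kb of the Stat5b gene end at 100859004. That end was not used, because Stat5b had annotated starts. The peaks there therefore cannot be assigned to Stat5a alone. Stat5a (chr11:100859351-100885169) had covered lengths of 1706 and 965 bp in the Ctrl libraries, 1455 and 873 bp with SR2, and 740 and 861 bp with THC. Both THC libraries were below the other 4 by covered length, though the second THC library was close to the second SR2 library. The region spanned both annotated starts, which are 828 bp apart, and the summits of the 6 libraries lay at -172 to -12 bp from the downstream start. The log2 difference was -0.02 (SE 0.30, limma adjusted p = 1) for SR2 and -0.20 (SE 0.30, adjusted p = 0.697) for THC against Ctrl.

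Stat5b (chr11:100780731-100859004) had covered lengths of 1373 and 1422 bp in the Ctrl libraries, 1138 and 1204 bp with SR2, and 686 and 1038 bp with THC. The groups did not overlap: Ctrl was highest, SR2 came next and THC was lowest. Its region, chr11:100849791-100851281, lay at the start at 100850581 in every library, and the downstream start 28011 bp away had no peak in any. The log2 change was -0.08 (SE 0.10, limma adjusted p = 0.967) for SR2 and -0.23 (SE 0.10, adjusted p = 0.239) for THC against Ctrl. Stat5b also had the highest summit pileups of the 10 genes, 159 and 105 in Ctrl, 67 and 89 with SR2, and 27 and 64 with THC.

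**Figure D2:**
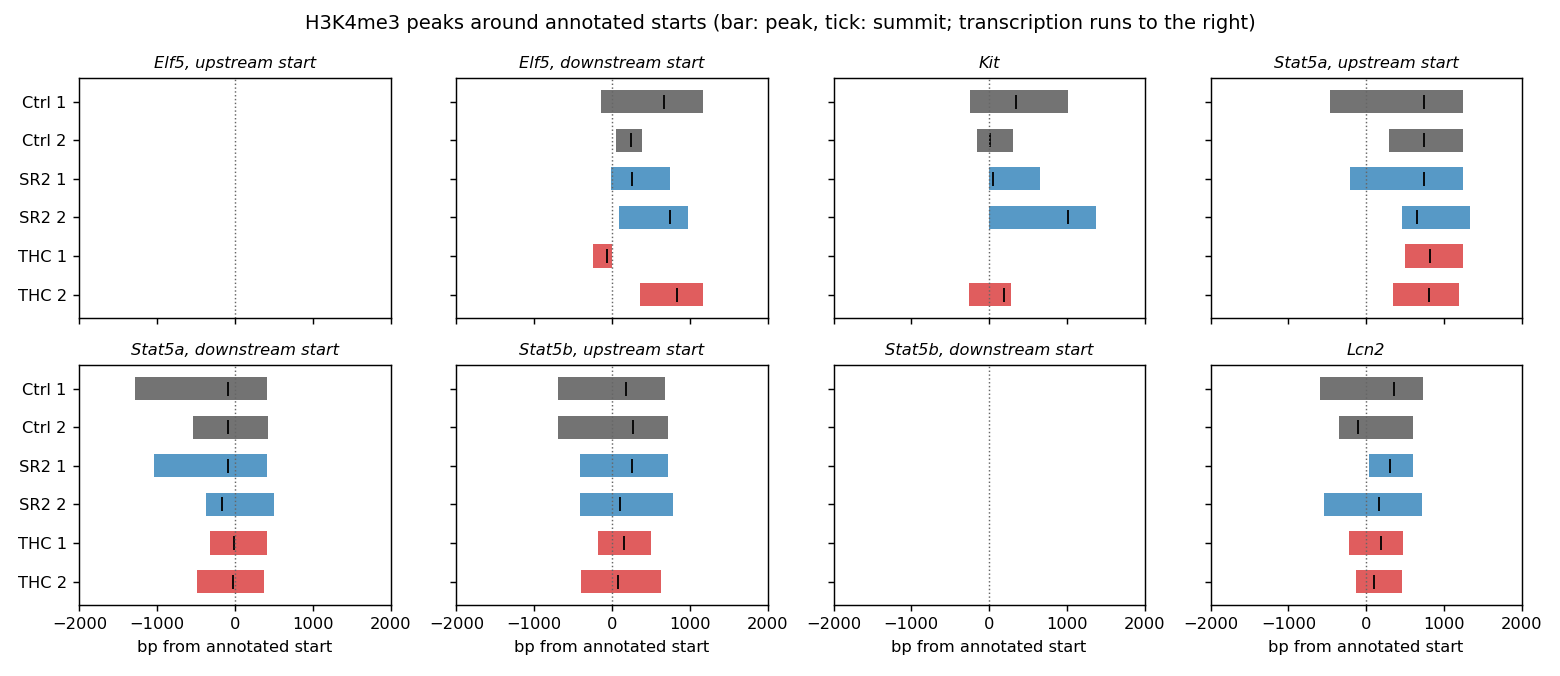
Extent of each called H3K4me3 peak relative to an annotated start (horizontal axis, bp) in the 6 libraries for the genes with a start in the promoter table; bars are peaks, ticks are summits and transcription runs to the right. The upstream Elf5 start and the downstream Stat5b start have no bar. At the upstream start the Stat5b peaks contain the start in all 6 libraries, whereas the Elf5 peaks shift along the gene from library to library.

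Btn1a1 and Xdh encode butyrophilin and xanthine dehydrogenase, which act together in the secretion of milk fat droplets. Btn1a1 (chr13:23456984-23465914) had covered lengths of 1933 and 1878 bp in the Ctrl libraries, 1662 and 1768 bp with SR2, and 1252 and 1624 bp with THC. The groups did not overlap in this order, though the region, chr13:23463993-23465968, also lies near a tRNA gene, n-TEttc5, and the noncoding gene Gm52036. Within 1 kb of the gene end at 23465914 the covered lengths were 1012 and 1055 bp in Ctrl, 946 and 968 bp with SR2, and 963 and 910 bp with THC. There SR2 and THC overlapped. The summits in Ctrl lay 1580 and 1525 bp from that end. It was the widest of the 10 regions in Ctrl, at a percentile of 91.6 among marked genes. The centred log2 change was 0.0014 (SE 0.07, limma adjusted p = 1) for SR2 and 0.0066 (SE 0.07, adjusted p = 0.961) for THC against Ctrl; with no centring it was -0.14 and -0.37.

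Xdh (chr17:73883895-73950397) had covered lengths of 1538 and 1124 bp in the Ctrl libraries, 1403 and 1182 bp with SR2, and 344 and 1010 bp with THC. Both THC libraries were below the other 4, and Ctrl and SR2 overlapped. In log2 units the difference was 0.11 (SE 0.30, limma adjusted p = 1) for SR2 and -0.52 (SE 0.30, adjusted p = 0.33) for THC against Ctrl. Without the first THC library the THC value was -0.08, and without the second, which left only the first THC library, it was -0.95.

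Lcn2 (chr2:32384637-32387739), a secreted protein that binds bacterial iron carriers, had covered lengths of 1330 and 945 bp in the Ctrl libraries, 562 and 1266 bp with SR2, and 688 and 600 bp with THC. Both THC libraries were below both Ctrl libraries, and SR2 overlapped with both groups. The log2 difference was -0.19 (SE 0.31, limma adjusted p = 1) for SR2 and -0.27 (SE 0.31, adjusted p = 0.619) for THC against Ctrl. Neutrophils also make Lcn2, and of 8 neutrophil genes S100a8 was marked in both Ctrl libraries only (351 and 375 bp), Camp in the second THC library only (440 bp), and the other 6 had no peak; their part in the Lcn2 values was not tested.

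**Figure D3:**
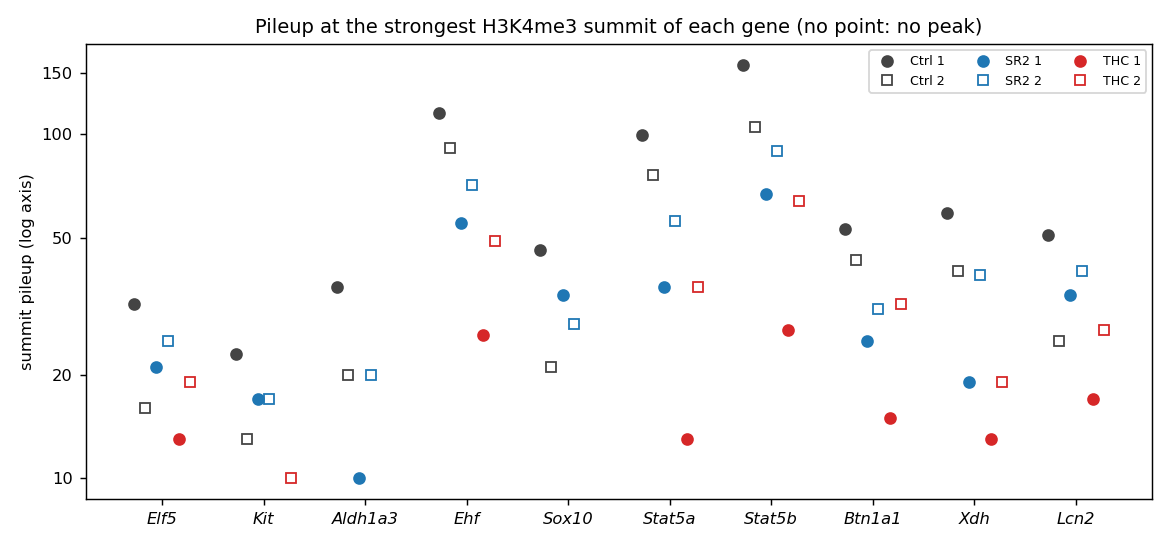
Pileup at the strongest H3K4me3 summit of each gene (vertical axis, log scale) in the 6 libraries, with no point where there was no peak. Stat5b and Ehf are the highest in Ctrl, at 105 to 159 and 91 to 115, and the first THC library is at the bottom for the genes it marks, at 13 to 27.

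Fold enrichment and −log10 q within a library were further measures of the peaks. The authors' fold enrichment, a value within each library, was 7.97 to 11.4 at Stat5b, 3.68 to 10.4 at Aldh1a3 and 3.32 to 3.95 at Sox10. Ranked within its own library by −log10 q, Stat5b had percentiles from 71.7 to 86.2 among the peaks. Elf5 ran from 17.3 to 33.7, Kit from 7.4 to 34.2 and Sox10 from 14.4 to 34.8. The peaks of Elf5, Kit and Sox10 were therefore low by this rank within each list that held them. This was not particular to them: Lcn2 (20.9 to 37.4), Btn1a1 (26.9 to 43.6), Aldh1a3 (9.29 to 46.1), Xdh (16.1 to 48) and Ehf (36.2 to 48.1) also stayed below the middle of each list. Stat5a ran from 18.1 to 60.1.

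For SR2 against Ctrl, 0 of the 10 genes passed the adjusted test, beside 0% of all regions. Both SR2 libraries were below both Ctrl libraries at 2 of the 10 (Stat5b and Btn1a1), beside 49.4% of regions, and 0 of the 10 were above in both, beside 1.76%. None of the 10 had a peak in both libraries of one group and neither of the other, beside 1.46% of 12523 genes with peaks in Ctrl only and 0.016% with peaks in SR2 only. The median log2 change of the 10 was 0.03, that of all regions -0.03 and that of the 10843 regions of protein-coding genes 0.006.

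For THC against Ctrl, which shares the Ctrl libraries with the first comparison, 0 of the 10 passed the adjusted test, beside 0% of regions. Both THC libraries were below both Ctrl libraries at 7 of the 10 (Aldh1a3, Sox10, Stat5a, Stat5b, Btn1a1, Xdh and Lcn2), beside 80.3% of regions, a share near that of the whole set; 0 of the 10 were above, beside 0.19%. Peaks in both Ctrl libraries and neither THC library were seen at 2 of the 10 (Aldh1a3 and Sox10), beside 5.25% of 12466 genes, and the reverse at 0 of the 10, beside 0% of genes. At an unadjusted p under 0.05 the same 2 genes were narrower in THC, beside 18.4% of regions. The median log2 change of the 10 was -0.25, against -0.15 over all regions and -0.02 over the 10843 regions of protein-coding genes. Of the 10 values 9 were negative.

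For THC against SR2, 0 of the 10 passed, beside 0% of regions, and 7 of the 10 had both THC libraries below both SR2 libraries, beside 40.6% of regions, while 0 were above, beside 0.64%. Peaks in both SR2 libraries and neither THC library were again at Aldh1a3 and Sox10, 2 of the 10, beside 2.15% of 12029 genes, and the reverse at 0 of the 10, beside 0.0249%. The median log2 change was -0.30, against -0.03 over all regions and -0.005 over the 10843 regions of protein-coding genes. Apart from Aldh1a3 and Sox10 the values ran from -1.34 at Kit (limma adjusted p = 0.644) to 0.0052 at Btn1a1 (adjusted p = 0.976), with Xdh at -0.64 (adjusted p = 0.637) and Elf5 at -0.38 (adjusted p = 0.76). The first THC library enters both THC comparisons; it was the lowest of the 6 alone at 7 of the 10 genes and shared a value of 0 with the second THC library at Aldh1a3 and Sox10.

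**Figure D4:**
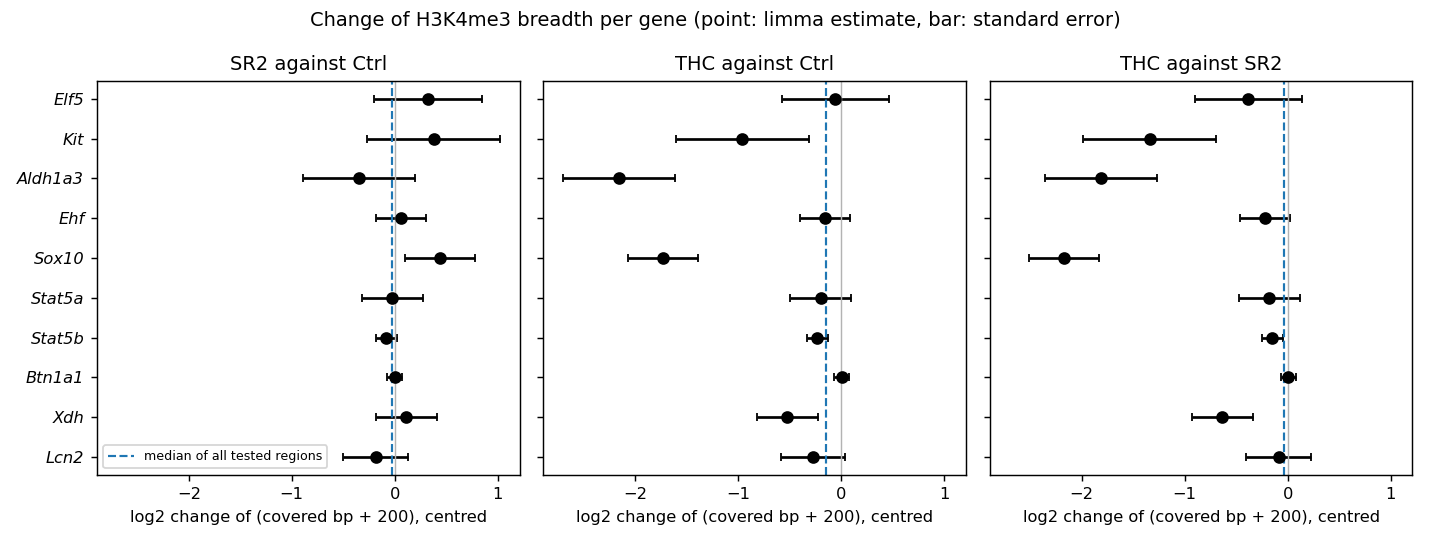
Log2 change of covered length (horizontal axis, after centring) for each gene and comparison, with bars for the standard error and a dashed line at the median of all tested regions. Sox10 and Aldh1a3 lie farthest from 0 in the THC comparisons, at -1.73 and -2.16 against Ctrl, and the other genes lie nearer to 0.

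The replicates of a group differed as much as the groups did for several of the genes. The first Ctrl library was above the second at 7 of the 10, the first SR2 library below the second at 8, and the first THC library below the second at 7. Of the highest values, 5 were in the first Ctrl library, 4 in the second SR2 library and 1 in the second Ctrl library. Taken within a batch, Sox10 went from 750 bp in Ctrl to 0 in THC in batch 1 and from 584 bp to 0 in batch 2, and Aldh1a3 from 877 and from 1057 bp to 0, each with 1 library per group and no test.

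Genes of the prolactin and Stat5 pathway were marked to different degrees. Of 16, 14 had an H3K4me3 region and 10 were marked in all 6 libraries, and 0 of the 13 tested passed the adjusted test in any comparison. Nfib, a transcription factor of milk gene expression, was the widest on average in Ctrl, at 2967 and 2829 bp, with 2311 and 2650 bp under SR2 and 1637 and 2190 bp under THC. Jak2, the kinase bound to the prolactin receptor, was marked at 1047 to 2244 bp. Prlr, the prolactin receptor, had 639 and 397 bp in Ctrl, 321 and 501 bp in SR2 and no peak in THC, with a log2 change of -1.44 and a limma adjusted p of 0.135 for THC against Ctrl. It was the only one of the 14 marked in both Ctrl and both SR2 libraries and in neither THC library. Prl, the hormone itself, and Tnfsf11 had no peak.

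Milk and alveolar effector genes were mostly unmarked. Of 19, 7 had a region and 3 were marked in all 6 libraries (Mfge8, the widest in Ctrl at 1988 and 1345 bp, Gpam and Acsl1), and none of the 5 casein genes had a peak, nor did Wap or Lalba, which encode whey proteins. Cidea, a lipid droplet protein, had 881 and 576 bp in Ctrl, 431 and 0 bp in SR2 and no peak in THC. The median log2 change of the 6 tested was -0.64 for THC against Ctrl, with 0 past the adjusted threshold.

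Of 20 other luminal progenitor genes, 14 had a region and 11 were marked in all 6 libraries, and 0 of 14 tested passed. Sox9, a progenitor transcription factor, was the widest in Ctrl at 2751 and 2726 bp and stayed at 2378 and 2559 bp in THC. Cyba, an NADPH oxidase subunit, had 544 and 452 bp in Ctrl, 0 and 361 bp in SR2 and no peak in THC. The median log2 change for THC against Ctrl was -0.11.

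Markers of other cell types were followed beside these values, and 0 of their tested genes passed in any comparison. Of 10 hormone-sensing luminal genes, 10 had a region and 3 were marked in all 6 libraries, with a summed covered length of 8615 to 9492 bp in Ctrl, 5222 to 8313 bp under SR2 and 1975 to 4293 bp under THC. The oestrogen receptor gene Esr1 (563 and 328 bp in Ctrl, 0 and 414 bp under SR2) and Ly6a (1234 and 1042 bp in Ctrl, 0 and 871 bp under SR2) had no peak under THC, and Cited1 was the widest in Ctrl at 1634 and 1603 bp. Of 12 basal and myoepithelial genes 6 had a region and 2 were marked in all 6, with sums of 10288 to 10661 bp in Ctrl, 7074 to 9992 bp under SR2 and 2288 to 6787 bp under THC. Krt5, the basal keratin, had 1763 and 2103 bp in Ctrl, 1015 and 1694 bp under SR2, and 0 and 1040 bp under THC, and Itgb4 was the widest in Ctrl at 2379 and 2303 bp. The part of these cell types in the values of the 10 genes was not tested.

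Of 7 adipocyte genes 2 had a region, Pparg and Lpl, and Lpl had 1167 and 1097 bp in Ctrl, 520 and 667 bp under SR2 and no peak under THC. Col1a1 was the only fibroblast gene with a region, at 1025 and 1045 bp in Ctrl, 901 and 1142 bp under SR2 and 292 and 360 bp under THC, and Kdr the only endothelial one, at 897 and 559 bp in Ctrl and 559 bp in the first SR2 library. Of the blood and myeloid genes, Spi1 had 612 and 296 bp in Ctrl and 312 bp in the second SR2 library, and Cd68 had 349 and 391 bp in Ctrl and 317 bp in the second THC library. Because Lpl, Col1a1 and Spi1 were placed by a gene end, their peaks may lie at either end or belong to another gene. The defining markers Pecam1, Adipoq, Ptprc and Cpa3 had no H3K4me3 peak in any library.

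**Figure D5:**
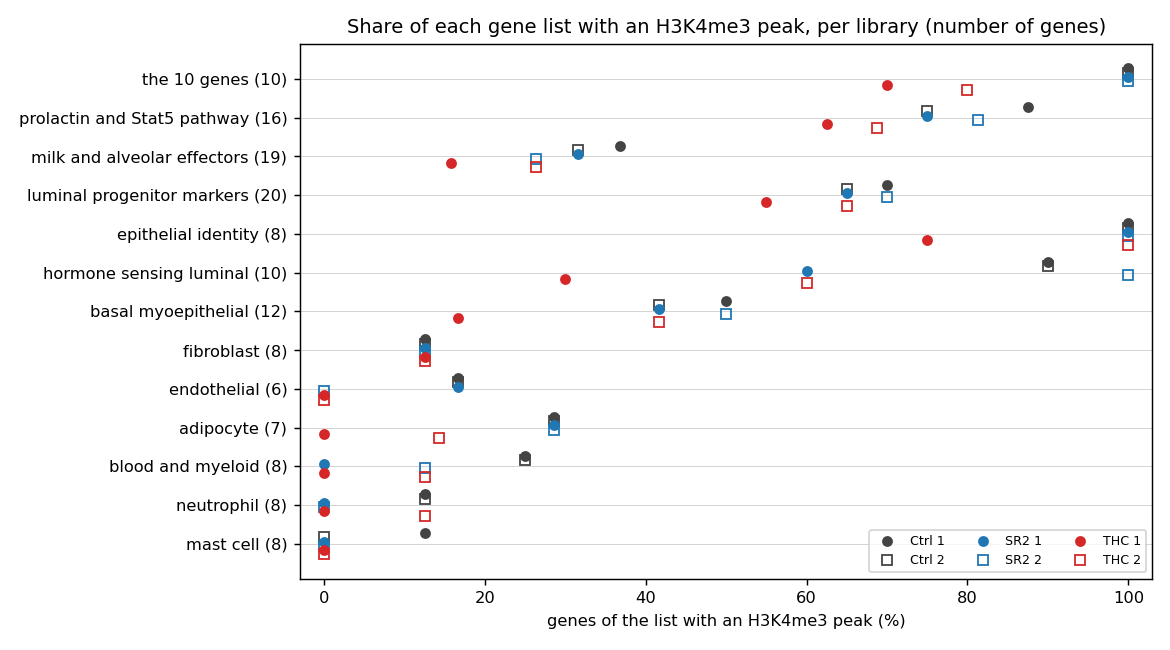
Percentage of the genes of each list with an H3K4me3 peak (horizontal axis), with a point per library and the number of genes in the list beside its name. All 10 genes were marked in the 4 Ctrl and SR2 libraries, 7 in the first and 8 in the second THC library, and milk and alveolar effectors were marked at 3 to 7 of 19.

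H3K27me3 was not called over any of the 10 genes or within 5 kb of them, and the nearest H3K27me3 region lay between 45.7 kb (Sox10) and 1110 kb (Ehf) away. Because the second library of each group held only 70 to 387 peaks and 3635 of the 4187 regions were marked in 1 library, the absence of a peak says little about the level of the mark. Other genes of the pathway, milk and progenitor lists did carry one. In the first Ctrl library these were Erbb4, a receptor that also signals through Stat5 (707 bp), the growth factor gene Igf2 (1546 bp), Acsl1 (522 bp), Notch3 (366 bp) and Rspo1 (367 bp), and in the second Ctrl library Itgb3 (630 bp). Rspo1, a Wnt agonist with no H3K4me3 peak, had 302 bp in the first THC library as well. Of the other cell types, Foxa1 had 1861 and 756 bp in Ctrl and 302 bp in the first SR2 library, Gata2 had 1935, 351 and 684 bp in the same libraries, and Pparg had 817 and 1018 bp in Ctrl. The remaining ones had a peak in 1 library each: Esr1 (409 bp), Tbx3 (408 bp), Itga6 (257 bp), Col1a2 (805 bp), Pdgfra (391 bp) and Adgre1 (295 bp) in the first and S100b (306 bp) in the second Ctrl library, and Thy1 (250 bp) and Erbb3 (323 bp) in the first THC library.

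By the profile of covered length over the 6 libraries, the gene nearest to each of the 10 was searched among 7969 protein-coding genes that had a region of their own. The distances, on the centred log2 scale, were smallest for Btn1a1 with Socs1 (0.11) and Stat5b with Tbc1d5 (0.13), and largest for Elf5 with Rasgef1a (0.79) and Kit with Aff3 (0.53). Sox10 was nearest to Zfp874a (0.35) and Aldh1a3 to Serpinb8 (0.41). Ehf was nearest to Rpl34 (0.19), Xdh to Ticam1 (0.23), Lcn2 to Tmem97 (0.35) and Stat5a to Mrpl28 (0.40).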

How the data were processed

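H3K4me3 and H3K27me3 were profiled in 12 libraries (6 per mark) of about 500000 cells each, per the labels' protocols; per the submitters' processing notes, MACS3, bedtools, deepTools, Picard, SAMtools 1.8, Bowtie2 2.5.4 and cutadapt 5.2 were used with the build mm10, with no order given. The deposited peak lists, called per library by the authors, give for each peak a score, a fold enrichment (a ratio) and the −log10 p and −log10 q, read in the standard column order of narrow and broad peak files, which have no header. Depth is not in the lists. Summit pileups were recovered from the deposited fold and −log10 p; 100% were whole within 0.01.

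Regions were built by merging peaks (1 bp overlap) over chromosomes 1 to 19, X and Y. Covered bp were log2-transformed with a pseudocount of 200 bp and centred on the median over the 10140 regions marked in all 6 libraries. Regions marked in at least 2 libraries were tested by limma 3.58.1 (R 4.3.3) with trend and Benjamini-Hochberg adjustment. All 6 libraries of the mark were in 1 fit. The test was tried on simulated data built from regions marked in all 6 libraries, with the same spread for each region. That simulation does not cover regions that lack a peak in some libraries, such as those of Sox10, Aldh1a3 and Kit. The H3K27me3 lists were described without a test. Gene positions and promoters came from RefSeq (GRCm38.p6), and 147 of 147 list genes matched. Libraries were grouped by the labels. The replicate number is the batch given in the labels, so it pairs libraries; deviations of same-numbered libraries correlated at -0.06, 0.03 and 0.05 over 15772 regions for the 3 pairs of groups. The widths of the regions were equal in the 2 libraries of a group in 0.235% to 0.876% of regions marked in both, so each library was counted as its own.

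The 10 genes, the lists and the tests were chosen with earlier results of these data known. All 10 genes are named. A gene of another list is named if it passed the threshold, had a peak in both libraries of one group and neither of another, had an H3K27me3 peak, was the widest of its list in Ctrl or was the first marker of its list; Jak2, Tnfsf11 and some milk, epithelial, melanocyte and neutrophil genes are also named, after their values were seen. Alternatives were other pseudocounts, centrings, filters, peak thresholds, distances, the libraries in the fit, the batch as a block and leaving out each library. The summed result of the remaining marker list is not reported here.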

Additional observations from a re-analysis of the deposited data

How the results depend on the processing

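Counts of regions past the adjusted threshold depended on the settings. With a pseudocount of 50 bp they were 1059 for SR2 against Ctrl and 1417 for THC against Ctrl, and with no centring 994 and 1914, each of 15772 regions. For THC against Ctrl they were also 39 of 24596 with regions marked in at least 1 library and 4 of 12246 with equal peak numbers. With only the 4 libraries compared the count was 1929 of 14873. Leaving out 1 library gave 0 to 2183 for THC against Ctrl and 0 to 1189 for THC against SR2, each nonzero count being without the second THC library. The replicate block, with the batch as a term, gave 0 in each comparison and changed no call. Of the 10 genes, Sox10 passed for THC against Ctrl by limma with a pseudocount of 50 bp (-3.40, adjusted p 0.0323), with no centring (-2.11, 0.0183) and with only the 4 libraries (-1.73, 0.0471). Aldh1a3 passed with only the 4 libraries (-2.16, 0.0471). These calls stand beside the counts of regions given above for the same settings. With only the first THC library kept, the THC against Ctrl value was -1.58 for Sox10 and -0.95 for Xdh. The THC against SR2 value of Sox10 was then -2.02. With equal peak numbers 3 genes (Elf5, Kit and Sox10) had peaks in SR2 only against Ctrl, and with a distance of 5 kb 1 gene, Sox10, had peaks in Ctrl only against THC and in SR2 only against THC. The count stayed at 2 with other genes elsewhere: past a −log10 q of 5, Kit and Aldh1a3 had peaks in Ctrl but not in THC (Sox10 was lost) and Kit and Sox10 in SR2 but not in THC (Aldh1a3 was lost), and with equal peak numbers Aldh1a3 was in Ctrl but not in THC, Elf5 in THC but not in Ctrl, and Kit and Sox10 in SR2 but not in THC. Without the second THC library, which left only the first THC library, 3 genes, now with Kit, had peaks in Ctrl but not in THC. The same 3 had peaks in SR2 but not in THC. The shares over all genes at these settings are not given here, so these counts are not read as a result about the 10 genes. Several log2 values changed sign. With no centring the SR2 against Ctrl value became -0.074 for Ehf, -0.14 for Btn1a1 and -0.027 for Xdh. With equal peak numbers it became 1.07 for Lcn2 and -0.000195 for Btn1a1, and the THC against Ctrl value became 2.11 for Elf5 and 0.98 for Lcn2. At that setting Kit and Sox10 had no peak in any Ctrl or THC library. Their shared THC against Ctrl value of 0.37 there reflects the centring alone. Quantile normalization gave 0.56 for Elf5 in THC against Ctrl. Btn1a1, near 0 throughout, turned negative for SR2 against Ctrl with a pseudocount of 1000 bp (-0.0104), quantile normalization (-0.024) and only the peaks past a −log10 q of 5 (-0.0090). For THC against Ctrl the same 3 settings gave Btn1a1 -0.027, -0.057 and -0.18, and no centring -0.37. For THC against SR2 they gave -0.017, -0.033 and -0.17, and no centring -0.23. Leaving out 1 library in turn also turned signs. For SR2 against Ctrl the values then ran from -0.39 to 1.04 for Elf5, -0.15 to 0.91 for Kit, -1.08 to 0.39 for Aldh1a3, -0.058 to 0.19 for Ehf, -0.39 to 0.34 for Stat5a, -0.020 to 0.023 for Btn1a1, -0.046 to 0.27 for Xdh and -0.61 to 0.24 for Lcn2. For THC against Ctrl they ran from -0.77 to 0.66 for Elf5, -0.52 to 0.22 for Ehf, -0.51 to 0.12 for Stat5a and -0.015 to 0.040 for Btn1a1. Between THC and SR2 they ran from -0.82 to 0.071 for Elf5, -0.59 to 0.15 for Ehf, -0.54 to 0.19 for Stat5a, -0.0096 to 0.030 for Btn1a1 and -0.51 to 0.33 for Lcn2. The cause of the other shifts was not tested. Over all 160 combinations of gene and setting, the direction and side of the threshold stayed in 139 when SR2 was set against Ctrl, in 139 when THC was, and in 148 between THC and SR2. The count of genes with H3K27me3 stayed 0 under each setting tried. Summit pileups of 10 to 36 at Elf5, Kit and Aldh1a3 limit how far a missing peak can be read as a missing mark.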
